A study of Mus musculus with 3 samples.

Results

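The beta-globin genes of the mouse lie inside a large cluster of olfactory receptor genes. Contacts of the beta-globin viewpoint were described here for the stretch of that neighbourhood that begins 150 kb beyond the adult globin genes and ends 1 Mb away, on the side away from the locus control region (LCR). This stretch, called the flank below, spans chr7:109976215-110826215 in mm9. Its members were the 1530 listed DpnII fragments whose midpoints fall in that interval, of 48123 listed fragments in all. The rule used their position and no count.

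The samples were 3 replicates of 1 group: erythroid cells from fetal livers of mixed-strain mice at E12.5, homozygous for a deletion of the beta-globin enhancers HS2 and HS3. All of them carried both deletions, so no sample had an intact LCR, and wild-type profiles were not analysed here. Cells were expanded for 6 days with Epo, SCF and dexamethasone, selected for CD117, and moved to a medium with more Epo and transferrin and without SCF and dexamethasone. The labels describe a 24 h time point of that differentiation and call these samples late erythroid. Cells of single livers were cultured apart, but the labels do not say that each replicate came from another liver, so the spread between replicates may in part be technical.

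In Capture-C, crosslinked chromatin is cut, here with DpnII, and religated, and the ligation products of a chosen fragment, the viewpoint, are enriched with oligonucleotides. The number of reads that join a fragment to the viewpoint measures how often both were close together in the nucleus. Contact frequency usually falls with distance along the chromosome, and departures from that fall mark domains, loops and boundaries. The LCR is a cluster of enhancers that drives the globin genes in erythroid cells, whereas olfactory receptor genes are transcribed mainly in olfactory neurons.

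In the GRCm38 order of genes, Olfr67 is the first gene beyond the adult globin genes on the side of the flank. Of the nearest 60 genes in that direction, 57 are olfactory receptor genes, 44 of them listed as protein coding and 13 as pseudogenes. The other 3 are Usp17lc and Usp17ld, of a family of ubiquitin-specific proteases, and the pseudogene Gm15116. Beyond Hbb-y, on the LCR side, 31 of the nearest 60 genes are olfactory receptor genes, 26 of them coding and 5 pseudogenes. Another 11 are Trim genes, of the tripartite-motif family, and Trim30e-ps1 among them is named as a pseudogene. The counts are in mm9 coordinates and the gene table is not, so no fragment was assigned to a gene.

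The 3 count columns held 49433, 49247 and 37382 cis reads. A count of 0 allows up to 0.00607%, 0.00609% and 0.00803% of a column's reads, by 3 counts. The deposited profile is named HbbCombined, and whether reads of Hbb-b1 and of its near-identical copy were joined is not stated. Distances, slopes and mirror positions below hold as given only for a single viewpoint. It was placed at position 110976215, in a gap of the fragment list next to the most contacted fragment. Another such gap lies 13.9 kb from it, toward the flank, which is 9.29% of the distance to the inner limit of the flank and 1.39% of that to the outer limit. Density means reads per kb of listed fragments, scaled to 100000 cis reads in each column, and errors are SDs over the columns.

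The flank held a small share of the contacts in every column. It drew 2024, 2297 and 1669 reads in the 3 columns, 5990 in all. These were 4.09% (95% exact binomial interval 3.92 to 4.27), 4.66% (4.48 to 4.85) and 4.46% (4.26 to 4.68) of the cis reads. The first column was lowest, and its interval did not overlap that of the second. Of the reads more than 100 kb from the viewpoint, the flank held 6.72%, 6.93% and 7.20%, so on that base the second column was no longer the highest. The density was 5.76, 6.56 and 6.28 in the 3 columns, a mean of 6.20 ± 0.41 (SD, n = 3). Such intervals cover counting error at most and leave out variation between replicates. They may be too narrow even for that error, since duplicate reads of one molecule may not be independent.

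Reads were spread thinly over many fragments. A fragment of the flank had a median of 3 reads over the 3 columns. In the flank 350 fragments (22.9%) had reads in every column, 513 in 2 columns and 571 in 1. Over all listed fragments the median was 1 read, and 2531 (5.26%) had reads in every column. That share was 17.0% at the same distances on the LCR side and 21.2% at 1 to 2 Mb on the same side. In the flank 96 fragments (6.27%) had no reads, against 10242 of all 48123 listed fragments (21.3%). The share was 199 of 1398 (14.2%) at the same distances on the LCR side. It was 30 of 111 (27.0%) in the 50 kb next to the flank on its inner side. Low shares were not particular to the flank, with 6.25% at 1 to 2 Mb on the same side and 4.35% at 100 to 150 kb on the LCR side. Which fragments were listed was not decided by these columns alone, so shares of empty fragments also depend on how the list was made. At the inner limit, the last fragment inside had 2 reads and the first outside had 14. At the outer limit, the last inside had 0 and the first outside had 5.

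The mean density within the flank had 3 sections: a high inner 100 kb, a long even middle and one raised place near the outer end. In windows of 50 kb the innermost window, 150 to 200 kb from the viewpoint, had densities of 11.1, 13.2 and 10.6 in the 3 columns. The next, 200 to 250 kb, had 10.4, 13.2 and 10.3. In both windows the second column was the highest and the other two were close together. From 250 to 300 kb the density was 6.83, 7.55 and 8.44, below every value of the inner windows.

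From 300 to 850 kb the mean profile was nearly flat. The means of its 11 windows ran from 4.25 to 5.94, a 1.40-fold range, with a median of 5.28. Single columns varied more, from 3.25 to 6.38, from 4.11 to 6.30 and from 3.65 to 5.73. This middle section held 51.9% of the reads of the flank on 63.8% of its listed sequence, at a density of 5.05 ± 0.26 (SD, n = 3). At 850 to 900 kb the density was 8.33, 8.74 and 8.33, rank 3 of the 17 windows in the first and second columns and rank 4 in the other. The neighbouring windows were lower, with 5.28 ± 0.50 at 800 to 850 kb and 4.90 ± 1.21 at 900 to 950 kb. The window at 850 to 900 kb thus stood at 1.97, 1.63 and 1.47 times the mean of its neighbours. It was singled out because it was high, so no test was made.

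**Figure D1:**
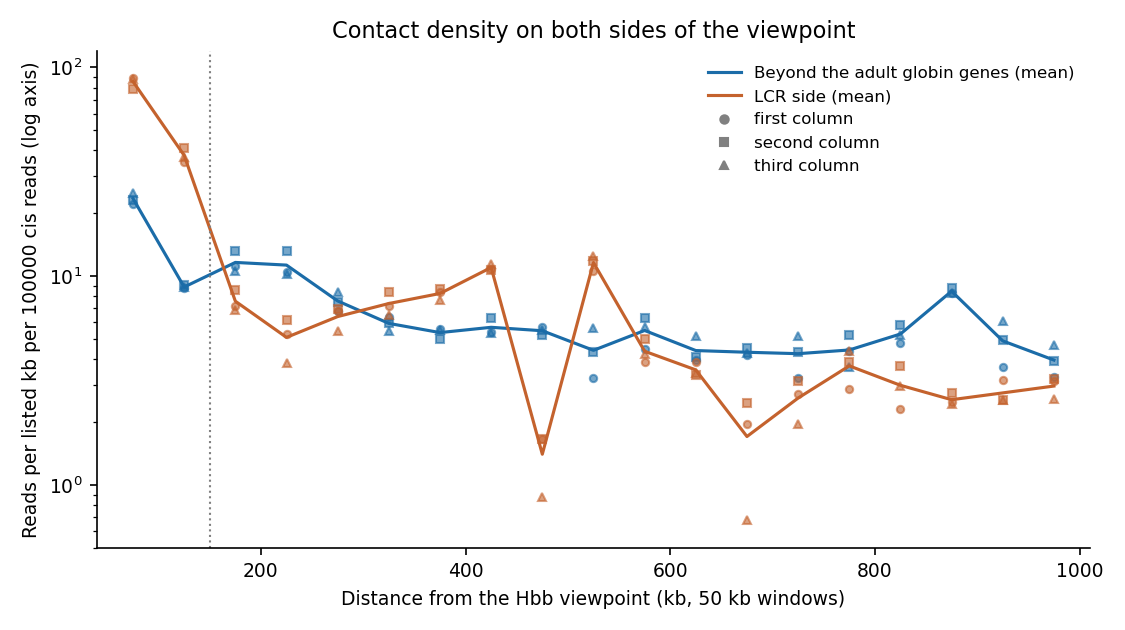
Reads per listed kb per 100000 cis reads (log axis) in 50 kb windows by distance from the viewpoint, beyond the adult globin genes and on the LCR side; points are the 3 columns, lines their means, and the dotted line marks 150 kb. The flank side levels off near 5 between 300 and 850 kb and rises to 8.47 at 850 to 900 kb, while the LCR side runs between 1.40 and 11.6 beyond 150 kb.

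The first comparison was between the flank and the sequence just inside it. At 100 to 150 kb the density was 8.73, 9.02 and 8.85. The flank as a whole was lower in every column, at 0.70-fold (log2 ratio -0.52 ± 0.073, SD, n = 3; exact sign-flip permutation test over the columns, p = 0.25, two-sided). That is the smallest p 3 columns can give, and it is the p of every comparison of this kind below, also after Benjamini-Hochberg adjustment within each family of 3 to 5 comparisons.

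The fall was not continuous. The inner 100 kb of the flank, 150 to 250 kb, was denser than the nearer sequence at 100 to 150 kb in 3 of 3 columns. Its densities of 10.8, 13.2 and 10.4 averaged 11.5 ± 1.499, which is 1.29-fold higher (log2 ratio 0.36 ± 0.16, SD, n = 3; exact permutation p = 0.25). This pair of stretches was chosen after the profile was seen. At 100 to 150 kb 27.0% of the listed fragments were empty, against 6.10% at 150 to 250 kb, and empty fragments count in the density. The 10 fragments with the most reads held 33.3% of the reads at 100 to 150 kb. The log2 ratio of this step was 0.32 with unlisted sequence counted as empty and 0.38 per fragment. Whether the step came from how fragments were listed was not tested. Without the fragment with the most reads the inner 100 kb still had 11.2 ± 1.41. It held 24.3% of the reads of the flank on 13.0% of its listed sequence. Over the same step on the LCR side the density went from 37.9 ± 2.82 to 6.37 ± 1.02.

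The outer neighbour, 1 to 2 Mb from the viewpoint on the same side, was denser than the flank although it lay farther away. Its density was 7.30, 7.55 and 7.26 in the 3 columns. The flank stood at 0.84-fold of it (log2 ratio -0.25 ± 0.079, SD, n = 3; lower in 3 of 3 columns, exact permutation p = 0.25). Counted per fragment the log2 ratio was -0.13. Both stretches had a median of 3 reads per fragment, and 6.25% of the fragments at 1 to 2 Mb were empty.

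Within the flank, density fell with distance with a log-log slope of -0.55, -0.49 and -0.37, a mean of -0.47 ± 0.091 (SD, n = 3; exact permutation p = 0.25). Beyond 250 kb the slope was -0.23 ± 0.10. On the LCR side the slope over 150 kb to 1 Mb was -0.71 ± 0.026. The flank was shallower in every column, by 0.17, 0.23 and 0.30 (mean 0.24 ± 0.068, SD, n = 3; exact permutation p = 0.25). This difference was 0.46 with unlisted sequence counted as empty and 0.41 with the mirror positions taken from the other unlisted stretch.

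Next, the flank was set against the LCR side at equal distance. Over the whole 150 kb to 1 Mb both sides were of similar density, 6.20 ± 0.41 against 5.44 ± 0.39. Within a column the flank was 1.14-fold higher (log2 ratio 0.11, 0.16 and 0.29; mean 0.19 ± 0.094, SD, n = 3; exact permutation p = 0.25). The log2 ratio was 0.33 with unlisted sequence counted as empty and 0.07 with mirror positions from the other stretch. The deletion lies on the LCR side, so positions there may be nearer in these cells than in the reference by its length.

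The near equality of the totals hid opposite differences by distance. At 150 to 200 kb the flank was 1.53-fold denser, with 11.6 ± 1.37 against 7.58 ± 0.92. This order rested on the place of the viewpoint: the log2 ratio of 0.62 was 0.35 from the midpoint of both unlisted stretches and -0.19 from the other stretch alone, and 0.40 per fragment. At 200 to 300 kb the flank was 1.69-fold denser, with 9.58 ± 0.91 against 5.70 ± 1.00. At 750 kb to 1 Mb it was 1.83-fold denser, with 5.56 ± 0.45 against 3.03 ± 0.23, and the 3 columns lay between 0.86 and 0.90 on the log2 scale.

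In the middle the LCR side was denser over the ranges taken whole, though only its windows at 300 to 450 kb and at 500 to 550 kb were. At 300 to 500 kb the flank stood at 0.81-fold, with 5.60 ± 0.13 against 6.92 ± 0.41, a log2 ratio of -0.30 that was -0.17 per fragment. At 500 to 750 kb it stood at 0.83-fold, with 4.60 ± 0.65 against 5.52 ± 0.29, a log2 ratio of -0.27 that was -0.12 with unlisted sequence counted as empty. Each of these 5 differences had the same sign in 3 of 3 columns, and each had an exact permutation p of 0.25. At 500 to 750 kb the columns no longer had 1 sign per fragment (-0.18) or with unlisted sequence counted as empty, each with an exact permutation p of 0.5.

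**Figure D2:**
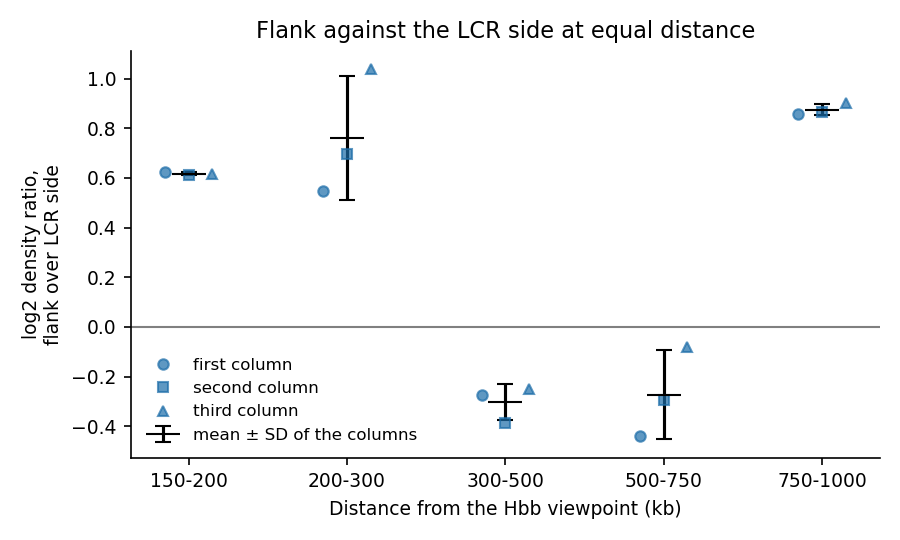
Log2 ratio of the density in the flank over that on the LCR side in 5 distance ranges; points are the 3 columns, and bars the mean ± SD. The flank is higher at 150 to 300 kb and at 750 kb to 1 Mb. It is lower over the ranges 300 to 500 kb and 500 to 750 kb taken whole, though not in every 50 kb window of them. With mirror positions from the other unlisted stretch the value at 150 to 200 kb becomes -0.19.

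Single 50 kb windows showed where the middle difference came from. Of 17 pairs of windows at equal distance, the flank was higher in all 3 columns in 12, the LCR side in 4, and the columns differed in 1. The 4 windows in which the LCR side was higher were those at 300 to 450 kb and the one at 500 to 550 kb, where it had 11.6 ± 0.94 against 4.41 ± 1.19 in the flank. Between them, at 450 to 500 kb, the LCR side had 1.40 ± 0.45, and the flank, with 5.48 ± 0.25, was 3.90-fold higher. At 850 to 900 kb the flank was 3.31-fold higher.

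The flank was the more even of both sides. The mean densities of its 17 windows ran from 3.96 to 11.6, a 2.93-fold range, against 1.40 to 11.6 and 8.27-fold on the LCR side. About its own slope, the log2 density of a 50 kb window had an SD of 0.37 ± 0.038 in the flank and 0.81 ± 0.22 on the LCR side. The spread was smaller in the flank in 3 of 3 columns (difference -0.44 ± 0.26, SD, n = 3; exact permutation p = 0.25), a comparison chosen after the profiles were seen. The third column differed most, with -0.73 against -0.31 and -0.28, and without it the mean was -0.29. Listing differed too, since the list covered 83.7% of the flank and 75.8% of the LCR side. Between windows of the flank the listed share ran from 60.8% to 95.9%, and windows with more listed sequence had higher densities (Spearman 0.57 over 17 windows of the same libraries, given as a description).

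Windows of 10 kb were then read against the number of reads expected at their distance, by a monotone curve through both sides. From 710 kb to 1 Mb this curve was level in every column, so the expected density there did not change with distance. A window was called high where every column had at least 2 times, and low where every column had at most 0.5 times, the expected reads. On both sides together, from 10 kb to 1 Mb, 6 of 197 windows (3.05%) were high and 20 (10.2%) were low. In the flank 1 of 85 was high and 0 were low. Among 84 windows at the same distances on the LCR side, 2 were high and 10 were low. Low windows nearer than 150 kb lay mostly on the side of the flank, between 40 and 140 kb from the viewpoint. The median ratio was 0.88 in the flank, 0.69 on the LCR side and 0.77 over all windows.

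The lack of low windows depended on the setting. Low windows of the flank numbered 6 with a power law as expectation, where 34 of all 197 windows were low, and 1 with the curve of the same side, where 9 were. Per fragment they numbered 2 of 19 low windows in all, and without the third column 3 of 24. High windows of the flank numbered 2 per fragment, of 8 in all, and 2 without the second column, of 9 in all. Each window of the flank held few reads, with a median of 60 over the 3 columns. Over the 10 kb windows, chi-square per degree of freedom between pairs of columns was 1.43 to 1.72, so the columns differed somewhat beyond the counting noise of independent reads. Their Spearman correlations across these windows were 0.67 to 0.76, and 0.83 to 0.88 on the more uneven LCR side, both as descriptions of windows that share libraries.

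The high window lay 860 to 870 kb from the viewpoint, at chr7:110106215-110116214. It held 101, 79 and 59 reads on 22 fragments, and its densities were 22.0, 17.2 and 17.0. The first column was the highest, and the 3 columns stood at 3.82, 2.63 and 2.70 times their density over the whole flank. In 3 of 3 columns no other 10 kb window of the flank was as dense.

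Its mean density of 18.7 ± 2.81 was 3.61 ± 0.69 times that expected at its distance (SD, n = 3). Without this window the remaining 40 kb at 850 to 900 kb had 5.99 ± 0.86, against 6.20 ± 0.41 over the whole flank. That remainder still held part of the rise. Its window at 870 to 880 kb had densities of 9.40, 10.1 and 11.0, at 1.95 ± 0.16 times the expected reads.

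In windows of 5 kb the rise covered 15 kb. From 860 to 865 kb the ratio to expectation was 2.55 ± 0.44, from 865 to 870 kb it was 4.62 ± 0.97, and from 870 to 875 kb it was 2.38 ± 0.11. The central window, chr7:110106215-110111214, held 67, 49 and 40 reads. The windows next to these 3, at 855 to 860 kb and 875 to 880 kb, were at 1.41 ± 0.31 and 1.23 ± 0.39. The window at 885 to 890 kb had 3, 8 and 2 reads. These finer windows were picked after their values were seen.

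**Figure D3:**
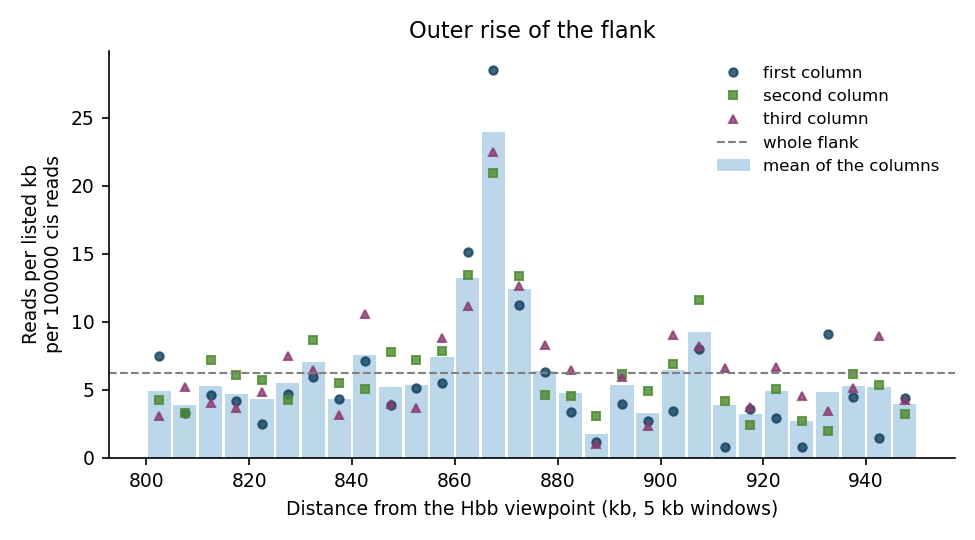
Reads per listed kb per 100000 cis reads in 5 kb windows 800 to 950 kb from the viewpoint; bars are means, points the 3 columns, and the dashed line is the density of the whole flank, 6.20. The 3 windows from 860 to 875 kb are above the dashed line in every column, as is the lower window at 905 to 910 kb.

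The other 4 of the 5 named high windows were all in the inner 100 kb, and none was called with all 3 columns. Without the second column that at 230 to 240 kb was, with 2.31 and 2.10 times the expected reads in the others. In windows of 5 kb the parts at 165 to 170 kb and 230 to 235 kb were called, at 2.36 ± 0.27 and 2.33 ± 0.37 times. The part at 165 to 170 kb held 45, 53 and 40 reads. Of these, 20, 21 and 6 lay on a single fragment, chr7:110808778-110809550, so that call leaned on it. The window at 160 to 170 kb, chr7:110806215-110816214, held 77, 62 and 47 reads and had densities of 18.3, 14.8 and 14.7. At 230 to 240 kb, chr7:110736215-110746214, the reads were 82, 65 and 51 and the densities 17.5, 13.9 and 14.4. The window at 190 to 200 kb had densities of 14.7, 16.5 and 11.3, and that at 220 to 230 kb had 11.5, 14.8 and 10.7. Against their distance these 4 windows held 1.66 ± 0.33, 1.99 ± 0.40, 1.57 ± 0.16 and 1.53 ± 0.04 times the expected reads. The inner section therefore had several moderately dense windows, spaced by thinner ones such as that at 170 to 180 kb, with 7.60 ± 4.11.

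Per fragment these inner windows stood out less, because some held many short fragments. At 190 to 200 kb, with 31 fragments, the density was 2.29-fold that of the flank per kb and 1.51-fold per fragment. At 230 to 240 kb, with 29 fragments, these values were 2.49-fold and 1.75-fold. At 220 to 230 kb, with 18 fragments, the order turned, with 1.99-fold per kb and 2.38-fold per fragment.

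**Figure D4:**
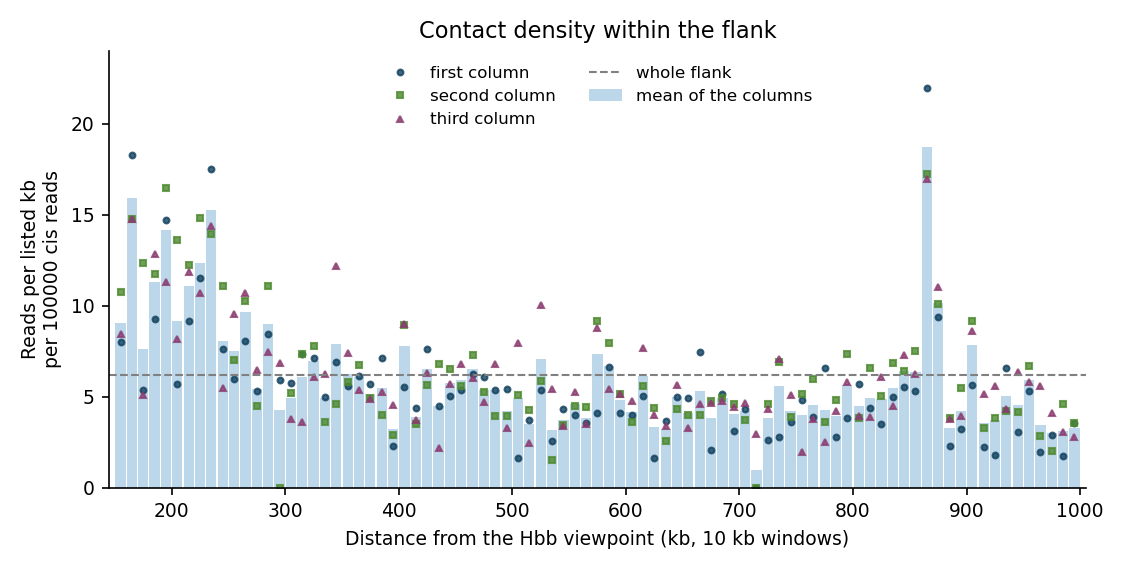
Reads per listed kb per 100000 cis reads in the 85 windows of 10 kb that make up the flank, by distance from the viewpoint; bars are means, points the 3 columns, and the dashed line is the density of the whole flank, 6.20. The tallest bar, 18.7, is at 860 to 870 kb, and the other 4 named high windows lie within 250 kb.

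The 5 named low windows lay at 630 kb or farther. At 710 to 720 kb only 2 fragments with 2.72 kb were listed, with 0, 0 and 3 reads. That window overlaps the longest unlisted stretch of the flank, 13.7 kb at chr7:110249530-110263266, and the fragments that border the stretch had 2 reads each. At 990 to 1000 kb, 2.85 kb were listed and 13 reads were counted. That window overlaps the second longest unlisted stretch, at chr7:109979363-109991715.

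The other 3 low windows were better listed. At 630 to 640 kb there were 13, 9 and 9 reads, at 0.52 ± 0.13 times the density of the flank. At 970 to 980 kb there were 13, 9 and 14 reads, at 0.49 ± 0.17 times. At 880 to 890 kb, 10 kb beyond the high window, there were 12, 20 and 15 reads on 10.7 listed kb, at 0.52 ± 0.11 times. Against their distance these 3 windows, in the order given, held 0.58 ± 0.13, 0.58 ± 0.21 and 0.63 ± 0.15 times the expected reads. Counted per fragment they stood at 0.73, 0.56 and 0.67 times the flank. The columns did not rank these 3 windows in the same order.

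Among listed fragments, runs without contacts were short. The 96 empty fragments fell into 83 runs, of which 74 were a single fragment. The longest run without reads had 6 fragments and 3525 listed bp, at chr7:110725311-110729538, 249 kb from the viewpoint and thus at the outer edge of the inner dense section. The next had 2 fragments and 1730 listed bp at 390 kb, and the third longest was 1 fragment of 1439 bp at 790 kb. In all, 139 kb of the flank was unlisted, of which 83.2 kb lay in 30 stretches of at least 1 kb.

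No single fragment dominated the flank. The 10 fragments with the most reads held 235 reads, 3.92% of the total, and ranked within each column the top 10 held 4.88% ± 0.30 (SD, n = 3), against 6.67% ± 1.05 on the LCR side. In the flank 7 of 1530 fragments reached 20 reads and 100 reached 10. Of all 48123 listed fragments 386 and 1003 did. At the same distances on the LCR side it was 10 and 80 of 1398, and at 1 to 2 Mb on the same side 40 and 189 of 2065. All of the 10 fragments with the most reads in the flank lay in its dense sections, 5 of them within 250 kb and 5 beyond 850 kb.

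The fragment with the most reads, chr7:110808778-110809550 at 167 kb, had 20, 21 and 6 reads, 47 in all. The third column was low there even for its depth, at 16.1 reads per 100000 against 40.5 and 42.6. The second in rank, chr7:110106888-110107723 at 869 kb, had 10, 7 and 8 reads. It adjoins chr7:110107724-110108076, with 5, 10 and 4 reads, and chr7:110108077-110108800, with 8, 6 and 5. Together with chr7:110105354-110106286 (6, 9 and 7 reads) and chr7:110103424-110103857 (5, 5 and 11 reads), these make up the 5 beyond 850 kb. All 5 were within 868 to 873 kb, so the raised place was carried by several fragments and by every column.

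In the inner section the leading fragments were less even between columns. At 202 kb, chr7:110773482-110773999 had 1, 17 and 1 reads, so that the second column held 88.0% of its scaled reads. At 223 kb, chr7:110752663-110753586 had 6, 13 and 2 reads. At 243 kb, chr7:110732701-110733033 had 4, 11 and 6 reads, and at 152 kb, chr7:110823076-110825302 had 6, 6 and 9. In 3 of the 10 fragments 1 column held over 50% of the scaled reads: those at 202 and 223 kb, and in the outer group the one at 873 kb.

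Density per kb also differed with fragment length. Members were 17 to 2867 bp long with a median of 341.5 bp, against 332.5 bp on the LCR side. Fragments of at most 173 bp had 2.54 reads on average and those of 628 bp or more had 4.82, although the longer group holds 55.4% of the listed sequence and the shorter 5.61%. The density per kb therefore went from 18.0 ± 0.92 in the shortest to 3.44 ± 0.37 in the longest class. Reads thus followed the number of fragments more closely than their length.

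The LCR side showed the same dependence, with 17.0 ± 1.59 and 3.00 ± 0.32 in the same length classes. In all 4 classes the mean of the flank was higher than that of the LCR side, but in the shortest class the first column had the opposite order, with 18.04 against 18.69. Empty fragments were rarer in the flank in each class as well, with 9.92%, 4.71%, 6.01% and 4.45% from short to long, against 14.7%, 14.8%, 12.1% and 15.1%.

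**Figure D5:**
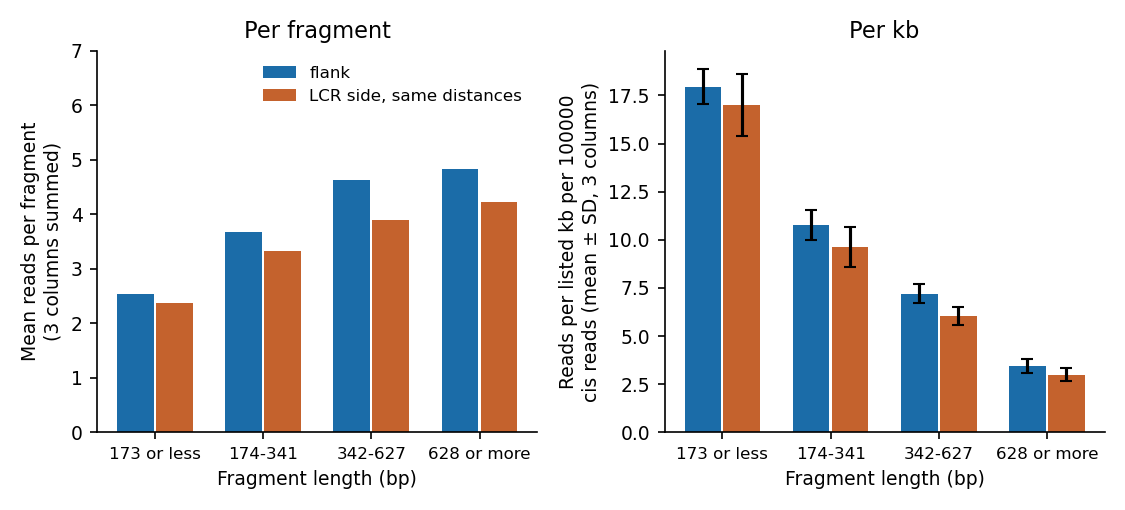
Mean reads per fragment, summed over the 3 columns (left), and reads per listed kb per 100000 cis reads (right, mean ± SD over the columns) in 4 classes of fragment length, for the flank and the LCR side at the same distances. Reads per fragment rise from 2.54 to 4.82 in the flank while density per kb falls from 18.0 to 3.44.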

How the data were processed

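Capture-C was measured in 3 samples of 1 group. The submitters' processing notes name Trim Galore, Bowtie2 and mm9, without versions. How junctions were counted and fragments were listed is not stated there or in the labels. The authors deposited raw counts per DpnII fragment of chromosome 7, in 3 columns under 1 header cell, so columns carry no replicate number and are named by order. Members, comparisons and lists were chosen with earlier results of these data known. Fragments were assigned by midpoint, and densities are per listed kb per 100000 cis reads. Ratios between stretches were taken within a column and tested by exact two-sided sign-flip permutation (SciPy 1.17.1). Expected reads came from a monotone fit per column (IsotonicRegression of scikit-learn 1.9.0) to densities in 10 distance bins a decade, 5 kb to 2 Mb; windows with under 2 listed kb were left out. Named were the 5 windows of 10 kb highest in their lowest column and the 5 lowest in their highest column, the 10 fragments with the most reads, and the 3 longest empty runs and unlisted stretches. The other windows and fragments printed were picked after their values were seen. The computation was tested on simulated data. Alternatives changed the denominator, viewpoint, window size, expectation, caps and filters, or left out a column. No sequence was used here.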

Additional observations from a re-analysis of the deposited data

How the results depend on the processing

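With unlisted sequence counted as empty the density of the flank was 5.19, per listed fragment 2.88 reads, and per 100000 reads beyond 100 kb 9.77. Without fragments under 100 bp the top 10 fragments held 5.18%. High windows of the flank numbered 5 of 162 with 5 kb windows (16 of 376 on both sides) and 2 per fragment (8 of 197). Low windows numbered 2 with 5 kb windows (41 of 376), 2 per fragment (19 of 197), 6 with a power law (34) and 1 with the expectation of the same side (9). The minimum of listed kb was scaled with the window size. From the other unlisted stretch the log2 side ratio at 150 to 200 kb turned to -0.19. No other ratio between stretches and no slope changed sign under the alternatives run. Leaving out 1 column gave densities of 6.02 to 6.42, a log2 side ratio of 0.14 to 0.23, an inner ratio of -0.55 to -0.48, an outer ratio of -0.28 to -0.21, slopes of -0.52 to -0.43, slope differences of 0.20 to 0.27, top shares of 4.75% to 5.04%, differences in spread of -0.52 to -0.29, 1 to 2 high windows and 0 to 3 low windows. The cause of these shifts was not tested. With 3 columns the sign-flip test cannot give a p below 0.25, and a 10 kb window holds a median of 60 reads, so differences between single windows are limited by depth.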
